A study of Mus musculus with 4 samples.

Results

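The EGF receptor family and its ligands were followed in murine 4T1 cells, a triple-negative breast cancer (TNBC) line of the mouse mammary gland. The genes were taken by symbol from the deposited matrix, and all 10 of those chosen were found among its 49585 genes. They are 4 receptors (Egfr, Erbb2, Erbb3 and Erbb4) and 6 ligands (Areg, Ereg, Hbegf, Tgfa, Btc and Epgn). Bulk RNA was measured in a pair of clones, each grown from a single 4T1 cell. 4T1-HM was picked for high and 4T1-LM for low metastatic capacity. HM_DFX and LM_DFX were grown for 48 h with 50 μmol/L of deferasirox (DFX), an iron chelator, and HM_Ctrl and LM_Ctrl with its solvent DMSO. Each capacity is represented by 1 clone and each condition by 1 library, so replicate error is unknown and p-values are not given. A difference between the clones is a difference between these cell populations, and cannot be told apart from what would separate any pair of clones.

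The receptors are tyrosine kinases that pair after ligand binding and signal through the RAS-MAPK and PI3K-AKT cascades. ErbB2 has no known ligand of its own and acts as a favoured partner, whereas ErbB3 has little kinase activity and recruits PI3K. The ligands are made as membrane proteins and released by ADAM proteases, and some of them take part in duct growth in the mammary gland.

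Levels are given as FPKM, the fragments on a gene scaled to its exon length and to the total of the library. Whole fragments were recovered from these values, with library totals between 14363065 and 21883855. Genes with at least 1 FPKM in at least 1 library were taken as expressed, which left 12669 genes and 7 of the 10 members. Egfr reached 1 FPKM only in the 4T1-HM libraries, so its place among the expressed members depends on the clone in which it was higher. Fold changes are on the log2(FPKM + 1) scale, which understates the change of low genes, and at least 2-fold was called. Fragment ratios are given beside them without a pseudocount, with exact 95% binomial intervals that cover counting error only and not variation between cultures. Of the epithelial markers, 9 of 10 were expressed, and their summed FPKM was 1899 (DMSO) and 633 (DFX) in 4T1-HM and 2390 (DMSO) and 1178 (DFX) in 4T1-LM. Of 10 immune markers only Cd68, which encodes a lysosomal protein, was expressed, and its FPKM was 12.9 and 37.4 in 4T1-HM and 12.3 and 83.1 in 4T1-LM without and with DFX. Ptprc, which marks all leukocytes, was listed at no more than 0.0139. Of the fibroblast markers 2 of 10 were expressed, and of the endothelial markers 1 of 8.

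**Figure D1:**
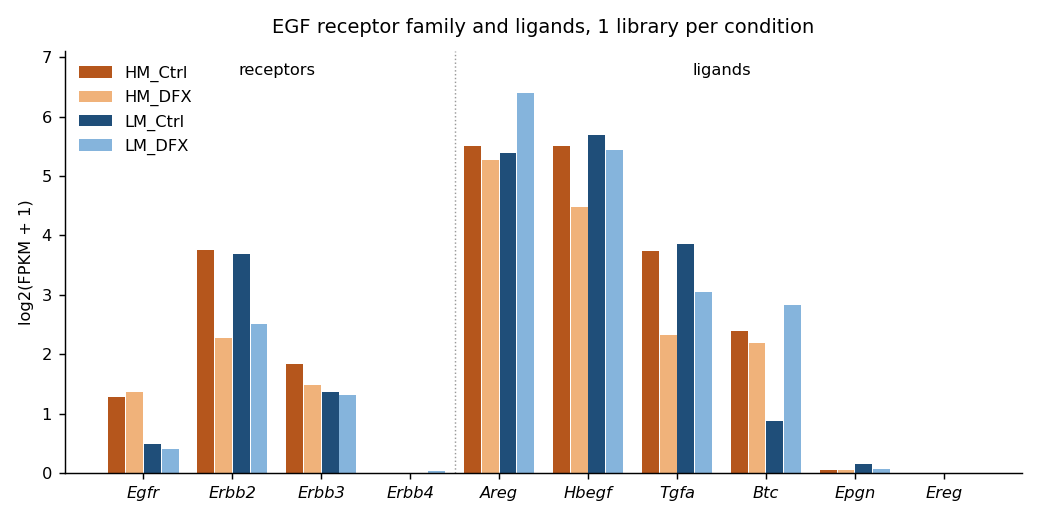
Level of each of the 10 genes in the 4 libraries, as log2(FPKM + 1), with receptors on the left and ligands on the right. Each bar is 1 library. Areg and Hbegf are highest in all 4 libraries, and Erbb4, Epgn and Ereg are at or near 0.

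The ligands were far more abundant than the receptors in these cells. Summed over the 6 ligands, the FPKM was 105 under DMSO and 66.5 under DFX in 4T1-HM, and 106 and 139 in 4T1-LM. The sum over the 4 receptors was 16.5, 7.16, 13.8 and 6.53 in the same order. The ratio of ligand to receptor sums was therefore 6.38 in 4T1-HM without and 9.28 with DFX, and 7.69 and 21.3 in 4T1-LM. In LM_DFX both a higher ligand sum and a lower receptor sum went into that ratio, whereas both sums were lower in HM_DFX than in HM_Ctrl.

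Erbb2 was the most abundant receptor in every library. It encodes the receptor known in human breast cancer as HER2 (ENSMUSG00000062312, chromosome 11 from 98412470 to 98437716 of mm10). Its FPKM was 12.5 (DMSO) and 3.80 (DFX) in 4T1-HM and 11.8 (DMSO) and 4.71 (DFX) in 4T1-LM. Both DFX libraries were below both DMSO libraries, and the untreated clones were close. The share of Erbb2 in the summed receptor FPKM was 75.7% under DMSO and 53.0% under DFX in 4T1-HM, and 85.8% and 72.1% in 4T1-LM. In HM_Ctrl its level exceeded that of 62.5% of expressed genes, and in HM_DFX that of 35.6%.

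Erbb3, the kinase-poor partner (ENSMUSG00000018166, chromosome 10 from 128567523 to 128589652), had an FPKM of 2.56 under DMSO and 1.79 under DFX in 4T1-HM, and 1.56 and 1.47 in 4T1-LM. These levels rested on 258, 155, 148 and 194 fragments, and only HM_Ctrl stood above the rest. Egfr encodes a receptor of these ligands (ENSMUSG00000020122, chromosome 11 from 16752203 to 16918158). Its FPKM was 1.43 (DMSO) and 1.57 (DFX) in 4T1-HM and 0.398 (DMSO) and 0.327 (DFX) in 4T1-LM. It separated by clone and not by treatment. Egfr was thus the lowest of the 3 expressed receptors in each library, and in LM_Ctrl its level exceeded that of only 4.14% of expressed genes. Erbb4, the remaining receptor (ENSMUSG00000062209, chromosome 1 from 68032186 to 69108059), had 5 fragments in LM_DFX and 0 in the other 3 libraries. For a gene of this exon length, 3 fragments, the limit that a count of 0 allows, would be 0.0145 FPKM in HM_Ctrl.

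Areg and Hbegf made up most of the ligand signal. Areg encodes amphiregulin, an EGF receptor ligand that acts downstream of estrogen in the mammary duct (ENSMUSG00000029378, chromosome 5 from 91139599 to 91148432). Its FPKM was 44.2 under DMSO and 37.6 under DFX in 4T1-HM, and 41.0 and 83.5 in 4T1-LM. LM_DFX stood apart from the other 3 libraries, and in it the level of Areg exceeded that of 95.2% of expressed genes. Hbegf encodes a heparin-binding ligand of EGFR and ErbB4 (ENSMUSG00000024486, chromosome 18 from 36504929 to 36515805). Its FPKM was 44.2 (DMSO) and 21.3 (DFX) in 4T1-HM and 50.5 (DMSO) and 42.2 (DFX) in 4T1-LM. HM_DFX was the lowest library here, and LM_DFX was also below both DMSO libraries. In HM_Ctrl Areg and Hbegf each gave 42.1% of the ligand sum, whereas under DFX Areg led with 56.5% in HM_DFX and 60.0% in LM_DFX. The exon length behind the deposited values of Hbegf was not that of GENCODE M21, and was solved from the values as 2373 bases or a multiple of it. The order of Hbegf against other genes depends on that length, while the ratio of its level between libraries does not. Its fragment counts and their intervals were computed with the shortest length, which gives the widest interval.

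Tgfa and Btc were lower. Tgfa encodes transforming growth factor alpha, a ligand of EGFR (ENSMUSG00000029999, chromosome 6 from 86195223 to 86275719). Its FPKM was 12.4 under DMSO and 3.98 under DFX in 4T1-HM, and 13.4 and 7.30 in 4T1-LM. As with Erbb2 and Hbegf, both DFX libraries were below both DMSO libraries. Btc encodes betacellulin, a ligand of EGFR and ErbB4 (ENSMUSG00000082361, chromosome 5 from 91357261 to 91402994). Its FPKM was 4.21 (DMSO) and 3.57 (DFX) in 4T1-HM and 0.830 (DMSO) and 6.09 (DFX) in 4T1-LM. LM_Ctrl was the low library, with 59 fragments against 319, 232 and 602 in the others.

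The remaining ligands were not detectably expressed. Ereg, which encodes epiregulin (ENSMUSG00000029377, chromosome 5 from 91074622 to 91093646), had 0 fragments in all 4 libraries, which allows at most 0.0506 FPKM in HM_DFX, the shallowest library. Epgn, which encodes epigen (ENSMUSG00000035020, chromosome 5 from 91027464 to 91035215), had between 1 and 3 fragments per library. Of the wider ErbB ligands, Egf itself was not expressed, with 0.142 FPKM in its highest library, nor were Nrg3 and Nrg4.

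A run of 4 of the ligand genes lies in 376 kb of chromosome 5, from 91027464 to 91402994. In order along the chromosome these are Epgn, Ereg, Areg and Btc, with Btc on the other strand. The matrix holds 7 genes in this stretch, and the other 3 are noncoding. Levels differed sharply between neighbours, since Ereg was listed at 0 in each library with Areg next to it. Areg and Btc were both highest in LM_DFX, where the noncoding gene Gm19619 between them also had its highest value, an FPKM of 0.443 against 0.0373 in HM_Ctrl, 0.283 in HM_DFX and 0 in LM_Ctrl.

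**Figure D2:**
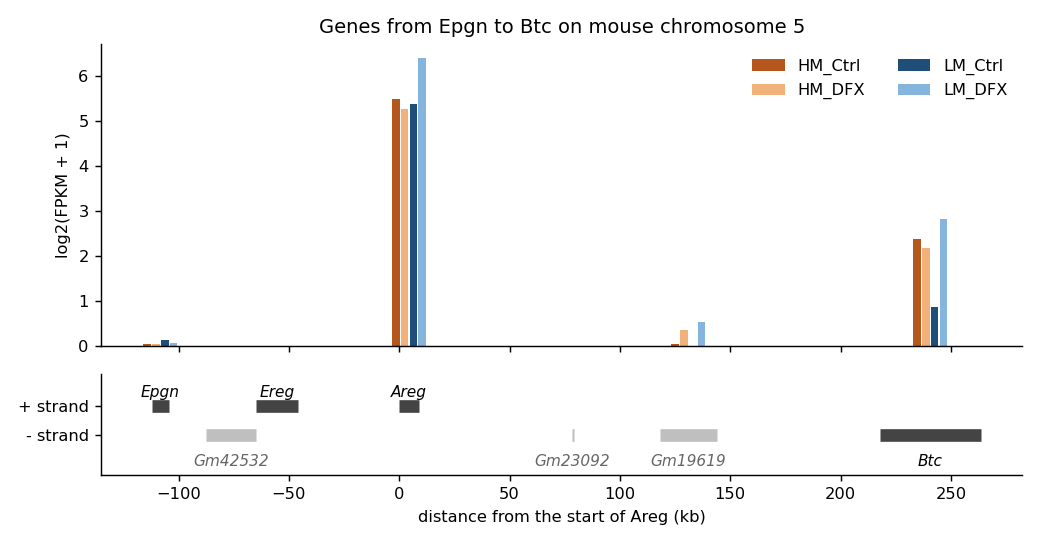
Levels of the 7 genes from Epgn to Btc as log2(FPKM + 1) above their position in kb from the start of Areg, with genes of each strand on a row of their own. Each bar is 1 library. Areg and Btc carry nearly all the signal, and both are highest in LM_DFX.

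The sequences just before the start sites of Areg and Btc, the pair of ligands that were higher in LM_DFX, and of Erbb2 and Tgfa, the pair of genes with the largest falls in HM_DFX, are shown for what they hold. They come from RefSeq on GRCm38.p6, the build also named mm10, in a table that holds 7 of the 10 genes, and run 5′ to 3′ up to the base before the first start annotated by RefSeq or GENCODE. Areg is read on the plus strand of chr5:91139349-91139598, Btc on the minus strand of chr5:91402995-91403244, Erbb2 on the plus strand of chr11:98412234-98412469 and Tgfa on the plus strand of chr6:86194972-86195221. Capitals mark matches to the motifs searched.
Areg: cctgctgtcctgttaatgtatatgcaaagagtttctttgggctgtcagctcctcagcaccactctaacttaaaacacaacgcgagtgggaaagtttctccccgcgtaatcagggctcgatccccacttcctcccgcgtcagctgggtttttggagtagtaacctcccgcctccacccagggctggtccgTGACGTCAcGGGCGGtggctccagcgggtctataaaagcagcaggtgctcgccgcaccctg
Btc: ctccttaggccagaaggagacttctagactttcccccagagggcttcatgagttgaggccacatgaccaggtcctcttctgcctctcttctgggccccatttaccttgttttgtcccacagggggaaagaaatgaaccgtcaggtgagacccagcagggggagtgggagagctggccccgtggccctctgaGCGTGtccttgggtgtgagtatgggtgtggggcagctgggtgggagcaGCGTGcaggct
Erbb2: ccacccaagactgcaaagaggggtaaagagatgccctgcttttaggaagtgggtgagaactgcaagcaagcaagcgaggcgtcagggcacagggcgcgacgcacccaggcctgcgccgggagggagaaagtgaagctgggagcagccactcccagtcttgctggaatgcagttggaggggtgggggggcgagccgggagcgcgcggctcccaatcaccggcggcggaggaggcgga
Tgfa: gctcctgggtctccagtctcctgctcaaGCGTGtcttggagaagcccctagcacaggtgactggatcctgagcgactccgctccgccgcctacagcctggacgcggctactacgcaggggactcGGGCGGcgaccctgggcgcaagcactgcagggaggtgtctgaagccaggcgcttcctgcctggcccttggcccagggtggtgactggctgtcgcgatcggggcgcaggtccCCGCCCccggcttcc

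The motifs were searched on both strands. They were the cyclic AMP response element TGACGTCA, the GC box GGGCGG, the hypoxia response cores ACGTG and GCGTG, the AP-1 site TGANTCA, the E-box CACGTG, which contains ACGTG, and the stress response element TGATGNAA. The Areg sequence holds TGACGTCA with its first base 61 bases before the start, a motif found in 1.55% of the 250-base windows of 32851 promoters. A GC box, present in 32.7% of those windows, follows it at 52 bases. The Btc sequence holds GCGTG at 59 and 11 bases before the start, and the Tgfa sequence holds it at 222 bases, against 28.2% of all windows. Tgfa also holds a GC box at 126 bases and, on the other strand and so printed as its complement, at 15 bases. The Erbb2 sequence has no match to any of the 7 motifs. None of the 4 sequences matches ACGTG, found in 16.6% of windows, TGANTCA, in 6.75%, CACGTG, in 6.02%, or TGATGNAA, in 3.45%. Of the 4, Tgfa has the most G and C, 69.2% against a median of 52.4% over all windows. A match is a string of letters and does not show that a factor was bound.

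In untreated cells 4T1-HM was compared with 4T1-LM, 1 clone for each metastatic capacity. Btc was the only member called, higher in HM_Ctrl than in LM_Ctrl. Over all expressed genes, 3.65% passed 2-fold toward HM_Ctrl and 3.15% toward LM_Ctrl, so 1 of 7 members is a count too small to set against that background. The log2 fold change of Btc was 1.51, and 1.22% of expressed genes had a larger one. Its fragment ratio was 5.08 (95% interval 3.84 to 6.83).

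Egfr came next, with a log2 fold change of 0.80 that was not called. Since both levels were near or below 1 FPKM, the pseudocount weighs on this value, and the fragment ratio was 3.60 (95% interval 2.76 to 4.74). Erbb3 had a fragment ratio of 1.64 (95% interval 1.33 to 2.02). The abundant members differed little between the untreated clones, with log2 fold changes of 0.07 for Erbb2, 0.10 for Areg, -0.11 for Tgfa and -0.19 for Hbegf. The counting intervals of Erbb2 and Areg included a ratio of 1. The median of the 7 expressed members was 0.10, beside 0.01 for all expressed genes.

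In 4T1-HM cells DFX was compared with DMSO. Erbb2, Tgfa and Hbegf were at least 2-fold lower in HM_DFX, and no member was at least 2-fold higher. The background was 12.4% of expressed genes lower and 6.93% higher, against 3 of 7 members lower. The log2 fold change of Erbb2 was -1.49, with a fragment ratio of 0.304 (95% interval 0.266 to 0.347), and 4.26% of expressed genes had a lower value. For Tgfa the log2 fold change was -1.43 and the fragment ratio 0.321 (95% interval 0.285 to 0.360). Hbegf, at -1.02, lay at the threshold. Its fragment ratio was 0.482 (95% interval 0.441 to 0.526), and it was no longer called after median-ratio scaling, at -0.88.

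The other expressed members changed less in 4T1-HM cells. Erbb3 had a log2 fold change of -0.35, Areg of -0.23, Btc of -0.19 and Egfr of 0.08, and the counting intervals of Btc and Egfr included a ratio of 1. The median over the 7 members was -0.35, beside -0.10 for all expressed genes. Of the 9 expressed epithelial markers, 6 were at least 2-fold lower in HM_DFX, against 12.4% of all expressed genes. Their median was -1.07, with Esrp1 at 0.02 and Krt19 at -0.19. The part of these markers in the lower Erbb2 was not tested. In bulk RNA, fewer cells that express a gene and less of its RNA in each cell cannot be told apart.

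DFX was compared with DMSO in 4T1-LM cells in the same way. Erbb2 was at least 2-fold lower in LM_DFX than in LM_Ctrl, and Btc and Areg were at least 2-fold higher. The background was 8.72% of expressed genes lower and 7.09% higher, against 1 and 2 of the 7 members. Btc had a log2 fold change of 1.95 and a fragment ratio of 7.33 (95% interval 5.61 to 9.75), and 1.54% of expressed genes had a larger value. Since LM_Ctrl was the library in which Btc was low, the comparison of the untreated clones and this one rest on the same 59 fragments. Areg, at 1.01, was at the threshold, with a fragment ratio of 2.04 (95% interval 1.88 to 2.21).

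Erbb2 in 4T1-LM cells had a log2 fold change of -1.17 and a fragment ratio of 0.399 (95% interval 0.358 to 0.444). Tgfa was lower without being called, at -0.80, with a fragment ratio of 0.543 (95% interval 0.500 to 0.589). Hbegf was at -0.26, Egfr at -0.08 and Erbb3 at -0.05, and for the last 2 the counting interval included a ratio of 1. The median of the 7 members was -0.08, beside -0.04 for all expressed genes. Of the 9 expressed epithelial markers, 2 were at least 2-fold lower and 1 higher, against 8.72% and 7.09% of all expressed genes. Their median was -0.52. Their part in the lower Erbb2 of 4T1-LM was likewise not tested.

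**Figure D3:**
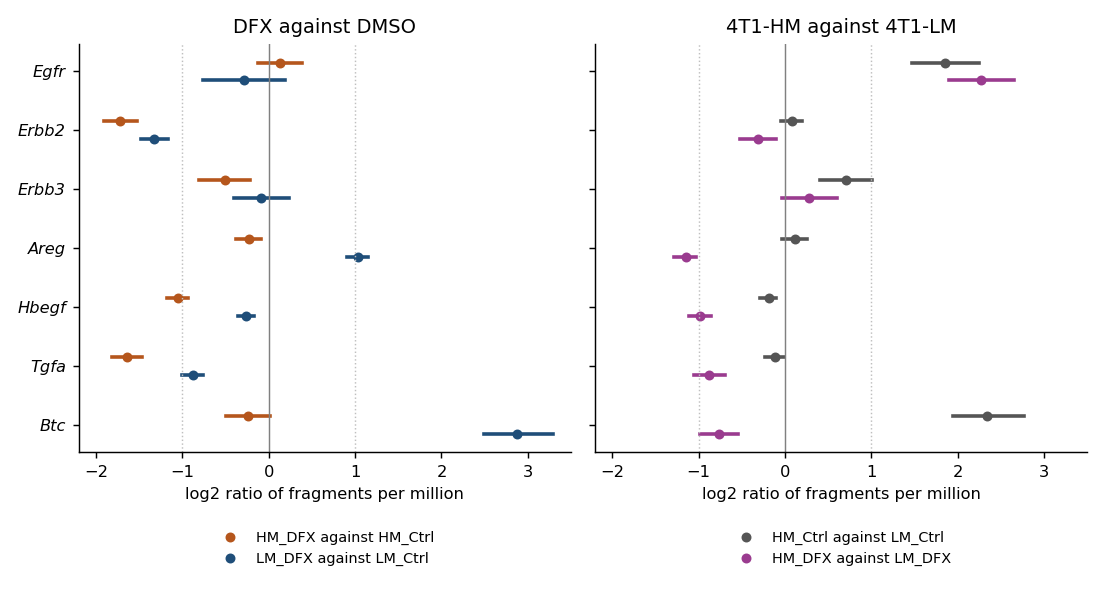
Log2 ratio of fragments scaled to library totals for the 7 expressed members, under DFX in each clone (left) and between the clones under DMSO and DFX (right). Points are ratios of 1 library to another, bars are 95% counting intervals, and dotted lines mark 2-fold. Erbb2, Tgfa and Hbegf lie with their intervals left of 0 in both clones under DFX, whereas Btc and Areg lie right of 0 in 4T1-LM only.

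The DFX responses of the clones were set against each other as the difference of their log2 fold changes. The 2 comparisons share no library. The difference, 4T1-HM minus 4T1-LM, was -2.14 for Btc and -1.24 for Areg, and these were the 2 members past 2-fold, both in the lower direction. Over all expressed genes 5.38% were past 2-fold in that direction and 3.52% in the other. Only 0.300% of expressed genes had a lower difference than Btc, and 2.95% a lower one than Areg. The difference of Btc rests on the same 59 fragments in LM_Ctrl as its calls above. For Hbegf the difference was -0.76, for Tgfa -0.63, for Erbb2 -0.32, for Erbb3 -0.30 and for Egfr 0.16. The median of the 7 members was -0.63, beside -0.08 for all expressed genes. Every expressed member except Egfr had a negative difference, the sign that the median of all expressed genes also had. With 1 library per condition, whether the clones respond differently could not be tested.

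**Figure D4:**
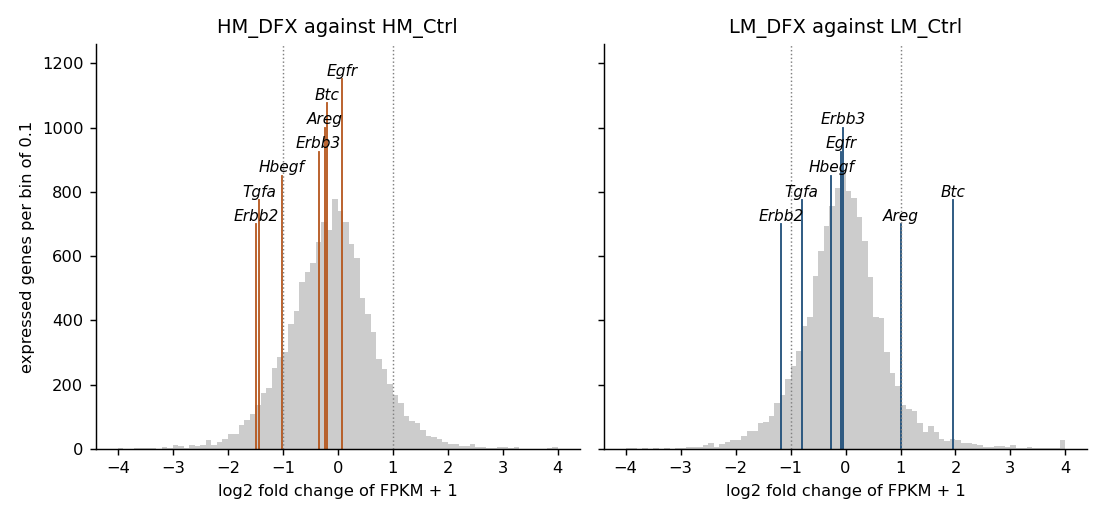
Distribution of the log2 fold change of FPKM + 1 over the 12669 expressed genes under DFX, 4T1-HM on the left and 4T1-LM on the right, with values past 4 placed in the end bins. Vertical lines mark the 7 expressed members and dotted lines 2-fold. Erbb2, Tgfa and Hbegf lie in the left tail in 4T1-HM, and Btc and Areg in the right tail in 4T1-LM.

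Under DFX the clones were also compared directly. Areg was the only member called, lower in HM_DFX than in LM_DFX, with a log2 fold change of -1.13 and a fragment ratio of 0.450 (95% interval 0.412 to 0.491). The background was 5.05% of expressed genes lower and 3.31% higher. Hbegf, Tgfa and Btc were also lower in HM_DFX, at -0.95, -0.74 and -0.63. Egfr was at 0.96, just inside the threshold, and its fragment ratio of 4.82 (95% interval 3.74 to 6.26) was the largest among the members. It was called after median-ratio scaling, at 1.01. Btc thus stood higher in 4T1-HM under DMSO and lower in it under DFX. The median of the 7 members was -0.63, beside -0.05 for all expressed genes.

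Genes that work with the receptors were counted in 5 lists written from general knowledge, with 64 genes in all. Their counts stand beside the shares of all expressed genes given above, 6.93% higher and 12.4% lower in HM_DFX and 7.09% and 8.72% in LM_DFX, and their medians beside -0.10 and -0.04. In lists this short the counts of called genes were small, and nothing is read from them about a list as a whole. Among the other ErbB ligands, 2 of 5 were expressed. Nrg1, a neuregulin that binds ErbB3 and ErbB4, had an FPKM of 3.85 under DMSO and 12.2 under DFX in 4T1-HM, and 3.68 and 11.2 in 4T1-LM. It was higher under DFX in both clones, with log2 fold changes of 1.44 and 1.38. Nrg2, a related ligand, had 2.19 (DMSO) and 0.497 (DFX) in 4T1-HM and 0.330 (DMSO) and 0.178 (DFX) in 4T1-LM. Its call between the untreated clones and its call under DFX in 4T1-HM share the HM_Ctrl library, the only one in which Nrg2 reached 1 FPKM, so that both rest on the library through which it was counted as expressed.

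The shedding and trafficking list held 10 genes, all expressed, of which 1 was at least 2-fold higher in each clone under DFX and none lower. That gene was Rhbdf2, an inactive rhomboid that carries the protease ADAM17 to the cell surface. Its FPKM was 11.7 under DMSO and 27.9 under DFX in 4T1-HM, and 12.0 and 26.1 in 4T1-LM. Adam12, a membrane protease, differed by clone, with 1.84 (DMSO) and 0.599 (DFX) in 4T1-HM and 8.30 (DMSO) and 4.27 (DFX) in 4T1-LM. The median of the list under DFX was -0.44 in 4T1-HM and -0.32 in 4T1-LM.

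Of 16 expressed adaptors and partners, 1 was at least 2-fold higher and 2 lower in HM_DFX, and 1 higher and 1 lower in LM_DFX. The adaptor gene Gab2, whose product couples receptors to PI3K, was higher in both clones, with log2 fold changes of 1.43 and 1.55. Grb7, an adaptor gene close to Erbb2 in the genome, was lower in both, at -1.76 and -1.17. Its FPKM was 8.43 under DMSO and 1.78 under DFX in 4T1-HM, and 10.7 and 4.21 in 4T1-LM, so that as with Erbb2 both DFX libraries were the lowest. Plcg1, a phospholipase gene, was at -1.42 in 4T1-HM and -0.61 in 4T1-LM. Gab1, a paralog of Gab2, differed by clone, with a log2 fold change of 1.14 in HM_Ctrl against LM_Ctrl.

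All 13 genes of the RAS, RAF and MAPK kinase list were expressed, with 2 at least 2-fold lower and none higher in HM_DFX, and 2 higher and 1 lower in LM_DFX. Rasa1, a brake on RAS, was lower in both clones, at -1.42 and -1.05. Mapk3, which encodes ERK1, was at -1.10 in 4T1-HM and -0.32 in 4T1-LM. Map2k1, which encodes MEK1, was at 0.90 and 1.21, and the scaffold gene Ksr1 at 0.62 and 1.11.

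The last list holds genes that inhibit or degrade the receptors. Of 19, all expressed, 3 were at least 2-fold higher and 3 lower in HM_DFX, and 4 higher and 2 lower in LM_DFX. The medians were -0.22 in 4T1-HM and 0.20 in 4T1-LM. Errfi1 encodes an inhibitor that binds the kinase domain of EGFR and is induced by its signal. Its FPKM was 67.5 (DMSO) and 23.8 (DFX) in 4T1-HM and 63.0 (DMSO) and 14.0 (DFX) in 4T1-LM, with log2 fold changes of -1.46 and -2.09. The ubiquitin ligase gene Cblb was at 1.31 in 4T1-HM and 1.34 in 4T1-LM, and the endosomal sorting gene Stam at 1.17 and 1.54. Other genes of this list, named after their values were seen, follow in the same order. Socs5 was at -1.13 and -1.06, Eps15 at -0.74 and -0.54 and Cblc at -1.18 and -0.04, whereas Hgs was at 0.95 and 1.13. The phosphatase gene Ptprj was at 1.05 in 4T1-HM and 1.85 in 4T1-LM.

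**Figure D5:**
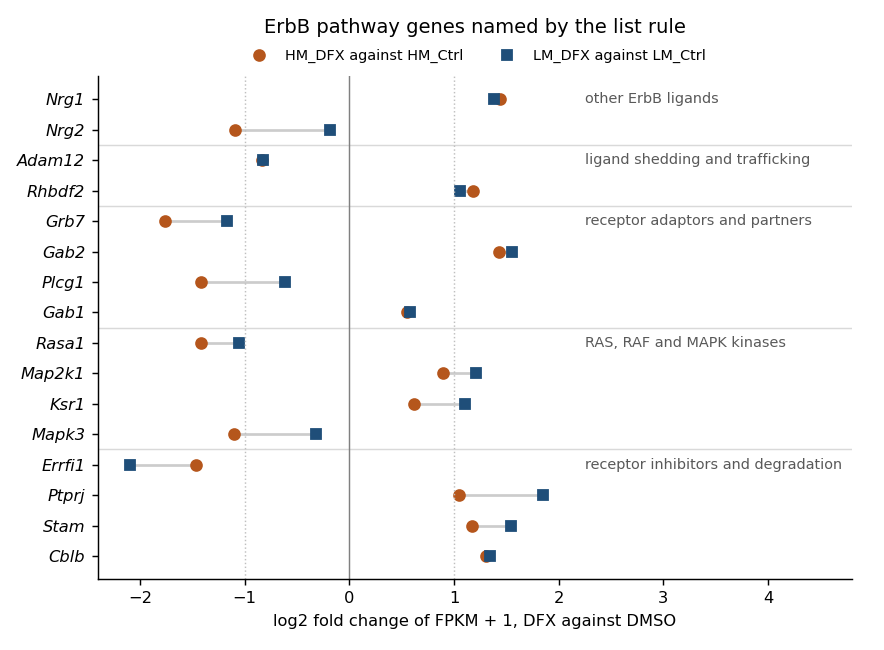
Log2 fold change of FPKM + 1 under DFX of the 16 pathway genes named by a fixed rule, in 4T1-HM (circles) and 4T1-LM (squares), grouped by list. Dotted lines mark 2-fold. The genes were picked for large changes in any of the 4 comparisons. In both clones Nrg1, Rhbdf2, Gab2, Cblb, Stam and Ptprj lie past 2-fold on the higher side, and Grb7, Rasa1 and Errfi1 on the lower side.

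The genes most like Btc and Tgfa, the 2 members with the widest range over the 4 libraries, were found by the root mean square difference between centred profiles of log2(FPKM + 1). For Btc, which spanned 1.95, these were Bhlhe41 at a difference of 0.13, Nupr1 at 0.17 and Acot13 at 0.20. For Tgfa, which spanned 1.54, they were Sh3glb2 at 0.03, Ttc21b at 0.04 and Atpif1 at 0.04. Each profile holds only 4 points, and the likeness is given as a description.

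Sequence shared with other genes and overlaps of exons were counted for the members and the named pathway genes. At most 2.95% of the 31-mers of a member, in Ereg, also occur in another gene of GENCODE M21. Exons of Ereg overlap a noncoding gene by 141 bases, with both genes at 0. Exons of Erbb2 overlap those of Mien1 on the other strand by 9 bases, and exons of Tgfa overlap a noncoding gene on the other strand by 118 bases, or 1.82% of its exon bases. Among the 16 named pathway genes the largest share of 31-mers found elsewhere was 11.5%, in Ptprj. The largest overlap with any single gene was 5.23% of exon bases, in Gab1. Exons of Plcg1 overlap those of Gm27206 by 3.16% and those of Zhx3 by 4.82% of its exon bases. The values of the members and the named pathway genes carry that uncertainty.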

How the data were processed

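Bulk RNA-seq libraries of 4 conditions, 1 each, were assigned by their titles. The authors selected poly(A) RNA, removed ribosomal RNA, made directional paired-end libraries, trimmed reads with Trimmomatic and aligned them with HISAT2 to mm10. The submitters' processing notes also name FastQC and featureCounts, and versions, annotation release and strand setting are not given in the sources used here. The authors deposited FPKM, with no filter on low values. The methods place a pair of libraries on each lane without saying which, and call genes with edgeR, which was not repeated, since 1 library per condition gives no spread.

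With exon lengths of GENCODE release M21, 96.8% of the 18236 genes above 0 with the same coordinates gave whole fragments in all 4 libraries, within 0.02. Depth limits the precision as the intervals show.

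Fold changes used FPKM + 1 on genes with at least 1 FPKM in at least 1 library, and the threshold was 2-fold. Alternatives were a pseudocount of 0.1 FPKM, no filter, median-ratio or 75th percentile scaling, and thresholds of 1.5-fold and 4-fold. Named pathway genes were up to 4 per list with the largest change past 2-fold in any of the 4 comparisons, and all members were named. The members, lists and motifs were chosen with earlier results of these data known. A listed symbol with more than 1 entry was read at the entry with the larger summed FPKM. Python 3.11.15, numpy 2.4.6, pandas 2.3.3, scipy 1.17.1 and matplotlib 3.10.9 were used.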

Additional observations from a re-analysis of the deposited data

Results flagged for a closer look

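The DFX response of 3 members went in opposite directions in the clones, which is why they are listed here. The difference of the log2 fold changes, 4T1-HM minus 4T1-LM, was -2.14 for Btc (-0.19 and 1.95), -1.24 for Areg (-0.23 and 1.01) and 0.16 for Egfr (0.08 and -0.08). Each rests on 1 library per condition, and the differences were not tested. That of Btc rests on LM_Ctrl, its low library, with 59 fragments. For Egfr the counting interval included a ratio of 1 in both clones, and for Btc it did so in 4T1-HM. In 4T1-HM the median of all expressed genes was -0.10, and after median-ratio scaling Areg was at -0.09 and Btc at -0.08.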

How the results depend on the processing

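The counts of members past 2-fold depended mainly on the threshold. At 4-fold they were 0 in HM_Ctrl against LM_Ctrl, 0 in HM_DFX against HM_Ctrl, 0 in LM_DFX against LM_Ctrl, 0 in HM_DFX against LM_DFX and 1 for the difference of the DFX response. At 1.5-fold they were 2 between the untreated clones, 3 in HM_DFX against HM_Ctrl, 4 in LM_DFX against LM_Ctrl, 5 between the clones under DFX and 4 for the difference. With a pseudocount of 0.1 FPKM there were 2 in HM_Ctrl against LM_Ctrl and 2 in HM_DFX against LM_DFX, and Egfr was the added gene in both, at log2 fold changes of 1.62 and 1.97. Median-ratio scaling, which moves the median of all expressed genes in HM_DFX against HM_Ctrl from -0.10 to 0.00, gave 2 in HM_DFX against LM_DFX and 2 in HM_DFX against HM_Ctrl, where Hbegf was lost. Dropping the filter changed none of the counts. Of 84 fold changes of members recomputed with another pseudocount or scaling, 77 moved by less than the counting error, 7 moved by more, and 0 changed sign. No paired analysis was possible because each condition has 1 library, and for the same reason no library could be left out.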
